A study of Mus musculus with 18 samples.

Results

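The kidneys of defeated mice given fluoxetine (FLX group) were compared with those of defeated mice given phosphate-buffered saline (PBS group) across all genes. The comparison held 12 of the 18 RNA libraries of the study, with 1 library from 1 mouse and 6 mice in each group. All were wild-type male C57BL/6 mice, and the labels give an age of 6 weeks. The study's methods give that age for the mice as bought, before acclimatization and defeat. The mice were therefore older when the kidneys were removed. Both groups went through chronic social defeat stress (CSDS), in which the mouse is placed daily with an aggressive CD-1 resident and afterwards kept in sensory contact with it. During CSDS the FLX group was injected intraperitoneally each day with fluoxetine dissolved in PBS and the PBS group with the same volume of PBS. The remaining 6 mice (Ctrl group) were handled daily and were not defeated. No group received fluoxetine without defeat, and the Ctrl mice are not described as injected, so the effect of the drug is measured here on a background of defeat and injection. The study left out 1 PBS mouse for excessive expression of inflammatory genes. It was taken to be PBS replicate 6, and values are given over the other 5 PBS mice, followed by those over all 6 where a call depended on that mouse.

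Fluoxetine is a selective serotonin reuptake inhibitor that blocks the serotonin transporter. The kidney takes up, makes and clears serotonin and other monoamines, and its tubule carries large sets of transporters and cytochrome P450 enzymes whose levels follow sex hormones, glucocorticoids and the hour of the day. Whole-kidney RNA mixes tubule, vessel, glomerulus, blood and any tissue attached to the organ. A lower level can therefore stand for fewer cells of a type or for less RNA in each cell, and these cannot be told apart in bulk RNA.

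Counts summed to between 48928823 and 79061296 per mouse in the FLX group and between 72373418 and 78711121 in the 5 PBS mice. FLX replicates 1 and 2 (74093215 and 79061296) resembled the PBS mice, whereas FLX replicates 3 to 6 reached at most 52073640. Transcripts of every main kidney segment were present in both groups. Slc34a1 of the proximal tubule had a median of 789 FPKM (fragments per kilobase of exon, scaled to the mapped fragments of the library) in the FLX mice and 704 to 878 FPKM in the PBS mice. Umod of the thick ascending limb had a median of 982 FPKM, Aqp2 of the collecting duct 124 FPKM and Nphs1 of the podocyte 4.54 FPKM in the FLX mice, and none of these 4 genes was called changed by edgeR (adjusted p of at least 0.7).

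Of 20251 genes tested with edgeR's quasi-likelihood test, 62 (0.306%) rose and 85 (0.42%) fell under fluoxetine at a Benjamini-Hochberg adjusted p under 0.05. At the looser threshold of the study, a change of more than 2-fold with an unadjusted p under 0.05, 199 genes (0.983%) were up-regulated and 185 (0.914%) down-regulated. With all 6 PBS mice, 45 of 19946 genes (0.226%) were higher and 66 (0.331%) lower at the adjusted threshold. Of the 147 genes called over 5 PBS mice, 93 were also called over 6, and no called gene changed sign. Of the 147, 39 were called in each of the 17 fits that left out 1 mouse, and the fewest genes were called without PBS replicate 4 (22 higher and 25 lower). All 147 kept their sign with FLX replicates 3 to 6 alone and with FLX replicates 1 and 2 alone. These mice also served to select the 147 genes, so the kept signs are no independent check. Of the 147, 108 had FPKM ranges that did not overlap between the FLX mice and the 5 PBS mice. Absence of overlap in a called gene is therefore common and no separate support for its call. FLX replicates 3 to 6 alone gave 17 genes higher and 21 lower, and FLX replicates 1 and 2 alone gave 0 and 0. Of 55 gene lists grouped by function, 26 held at least 1 called gene, and 43 of the 147 called genes belonged to a list. In the rest of the text, log2FC is the log2 fold change of FLX against PBS, and called, rose and fell are used of genes at an adjusted p under 0.05 with edgeR over 5 PBS mice, unless another tool is named. At an unadjusted p under 0.05 alone, 1167 genes (5.76%) were higher and 1089 (5.38%) lower, the background for counts at that level. For edgeR calls in the lists below, the background is 0.306% of all genes higher and 0.42% lower. DESeq2 called more genes, 251 higher and 247 lower among all genes, and its counts in the lists stand against these.

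**Figure D1:**
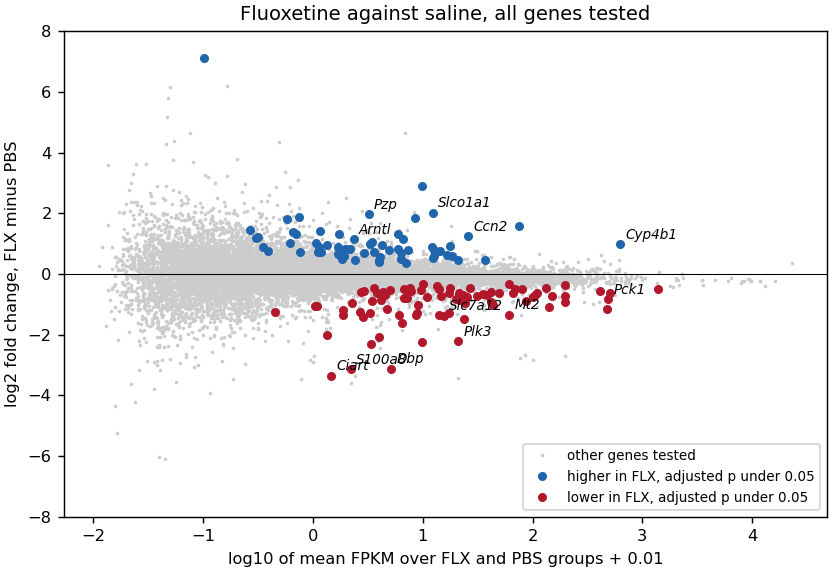
Log2 fold change of FLX against 5 PBS mice (y axis) against log10 of the mean FPKM of both groups plus 0.01 (x axis) for each of the 20251 genes tested. Blue points are the 62 genes higher and red points the 85 genes lower at an adjusted p under 0.05, grey points are the other genes, and the isolated blue point near the top left is Ly6i, whose RNA was at 0 FPKM in all 5 PBS mice.

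**Figure D2:**
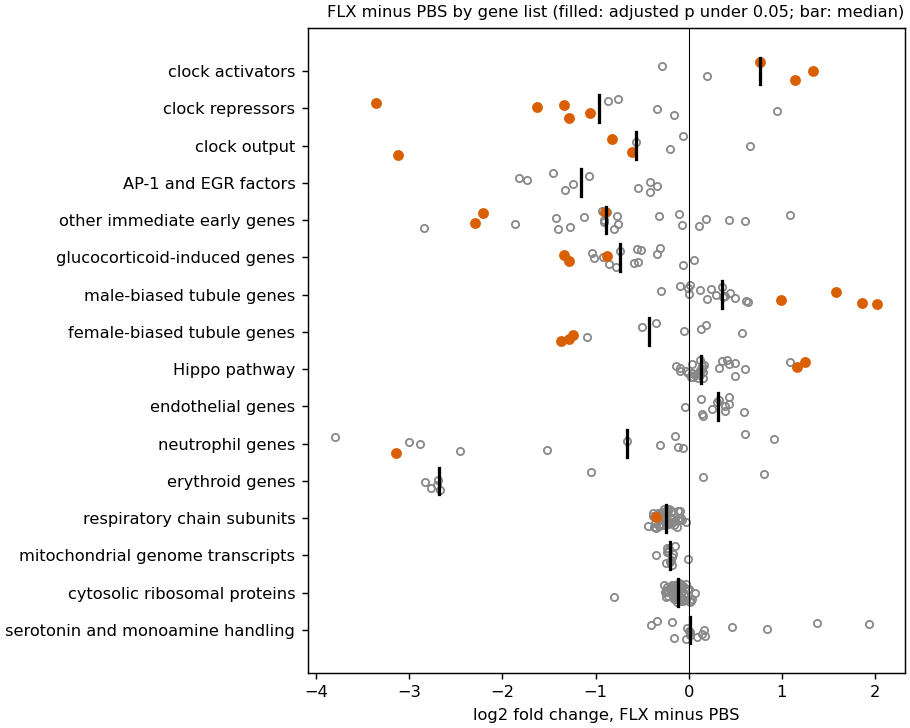
Log2 fold change of FLX against 5 PBS mice (x axis) for the tested members of 16 gene lists (y axis), with each gene as a circle, called genes filled in orange, and the list's median as a black bar. The 3 called clock activators lie to the right and the 5 called clock repressors to the left of 0, immediate early and glucocorticoid-induced genes lie mostly to the left, and serotonin genes scatter around a median of 0.02.

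The circadian clock was the function with the highest share of called members. In the clock, BMAL1 (encoded by Arntl) pairs with CLOCK or NPAS2 and binds E-boxes to switch on the Per, Cry, Nr1d and Dbp genes, and the PER, CRY and NR1D proteins in turn repress that drive or the Arntl gene itself. Of 5 activators, 3 rose and 0 fell (median log2FC 0.77, against -0.0027 over all genes tested). Of 10 repressors, 0 rose and 5 fell (median -0.96). Of 7 output genes, 0 rose and 3 fell (median -0.57). These shares stand against 0.306% of all genes called higher and 0.42% called lower.

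Ciart (ENSMUSG00000038550, GRCm38 chromosome 3, 95878503 to 95882231), a repressor of the BMAL1 complex, was at 1.81, 1.88, 1.14, 5.47 and 2.83 FPKM in PBS replicates 1 to 5. In the FLX mice it lay between 0.137 and 0.395 FPKM with a median of 0.268, below every PBS mouse. The log2FC was -3.35 (standard error 0.39, adjusted p = 0.000808 with edgeR), the largest fall among the clock genes, and -3.23 over 6 PBS mice (adjusted p = 0.00239). Dbp (ENSMUSG00000059824, chromosome 7, 45705088 to 45710203), a PAR-domain transcription factor that carries clock time to metabolic genes, was at 4.16, 7.60, 3.23, 23 and 7.90 FPKM in the PBS mice. It lay between 0.694 and 1.69 FPKM in the FLX mice (median 1.06). It fell by 3.12 on the log2 scale (standard error 0.43, adjusted p = 0.00218), without overlap between the groups, although PBS replicate 4 stood well above the other PBS mice. In the Ctrl mice, Dbp ranged from 9.39 to 22.1 FPKM and Ciart from 0.659 to 1.72 FPKM.

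Nr1d1 and Nr1d2, which encode the heme-binding repressors REV-ERB alpha and beta, moved alike. Nr1d1 was at 10.2, 7.27, 12.3, 10.8 and 8.03 FPKM in the PBS mice and between 2.1 and 5.37 FPKM in the FLX mice (median 3.13). Its log2FC was -1.63 (standard error 0.25, adjusted p = 0.00428), and PBS replicate 6 stood apart at 33.3 FPKM. Nr1d2 was at 9.63, 11.2, 10.5, 17.5 and 11.8 FPKM in the PBS mice, and all FLX mice were lower, between 2.57 and 6.74 FPKM (median 5.61, log2FC -1.34, standard error 0.22, adjusted p = 0.00693). Per1, which glucocorticoids also induce, was at 14.9, 7.56, 9.06, 16.4 and 13.2 FPKM in the PBS mice. It lay between 3.83 and 7.38 FPKM in the FLX mice (median 5.07), just below the lowest PBS mouse, and 1.82 to 4.12 FPKM in the Ctrl mice. Per1 fell by 1.28 on the log2 scale (standard error 0.23, adjusted p = 0.0171), and its adjusted p was 0.0582 without PBS replicate 4. Per3, a further period gene, had a log2FC of -1.06 (adjusted p = 0.0402), which was -0.89 over 6 PBS mice (adjusted p = 0.152). The Per3 call was lost in 13 of the 17 fits without 1 mouse, with an adjusted p of up to 0.137, without PBS replicate 4.

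The activators took the opposite course. Arntl (ENSMUSG00000055116, chromosome 7, 113207465 to 113314126) was at 1.94, 1.42, 1.89, 0.620 and 1.15 FPKM in the PBS mice and between 2.42 and 3.94 FPKM in the FLX mice (median 3.38). Every FLX mouse exceeded every PBS mouse, and the log2FC was 1.14 (standard error 0.23, adjusted p = 0.0244). The call missed the threshold without FLX replicate 1 (adjusted p = 0.0503), FLX replicate 5 (0.0522) or FLX replicate 6 (0.0598). Npas2, whose protein replaces CLOCK as the partner of BMAL1, was at 1.03, 0.848, 1.72, 0.409 and 0.731 FPKM in the PBS mice against 1.86 to 2.93 FPKM in the FLX mice (median 2.57). Its log2FC was 1.33 (adjusted p = 0.0402), with an adjusted p of up to 0.104, without PBS replicate 4, and above 0.05 in 13 of the 17 fits that left out 1 mouse. Clock itself was at 2.21 to 2.54 FPKM in the PBS mice and 2.58 to 3.12 FPKM in the FLX mice, a log2FC of 0.20 that was not called (adjusted p = 0.458).

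Among outputs, Usp2, a deubiquitinase gene with clock-driven transcription, had the smallest p among all genes that fell. It was at 25.2, 24.1, 26.2, 27.9 and 22.8 FPKM in the PBS mice and between 12.3 and 17.5 FPKM in the FLX mice (median 15.3). The log2FC was -0.82 (standard error 0.09, adjusted p = 0.000808), a narrow spread for a change of this size. Tef, a relative of Dbp, fell by 0.61 on the log2 scale (adjusted p = 0.019), from 18.6 to 27.7 FPKM in the PBS mice to 14.9 to 20.1 FPKM in the FLX mice. The Tef call was lost over 6 PBS mice (adjusted p = 0.110) and without PBS replicate 4 (0.0700). Noct, which encodes the rhythmic NADPH phosphatase nocturnin, fell by 1.41 (standard error 0.20, adjusted p = 0.00247), from 2.96 to 5.51 FPKM in the PBS mice to 1.02 to 2.22 FPKM in the FLX mice.

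Not every clock gene followed this order. Cry1, a core repressor, was at 1.2 to 2.06 FPKM in the PBS mice and 2.01 to 5.49 FPKM in the FLX mice, a log2FC of 0.95 (adjusted p = 0.0697, and 0.0432 over 6 PBS mice). Per2 had a log2FC of -0.16 (adjusted p = 0.88) and Nfil3, an E4BP4 repressor of the Dbp targets, one of 0.66 (adjusted p = 0.31). By an exact two-sided permutation test on log2(FPKM + 0.1), whose smallest possible p is 0.00216, Arntl, Npas2, Ciart, Dbp, Nr1d2, Per1 and Usp2 each reached p = 0.00216. These genes were called in the same mice and did not overlap between the groups, so this p is no independent check. No source used here gives the hour of day at which each kidney was removed.

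**Figure D3:**
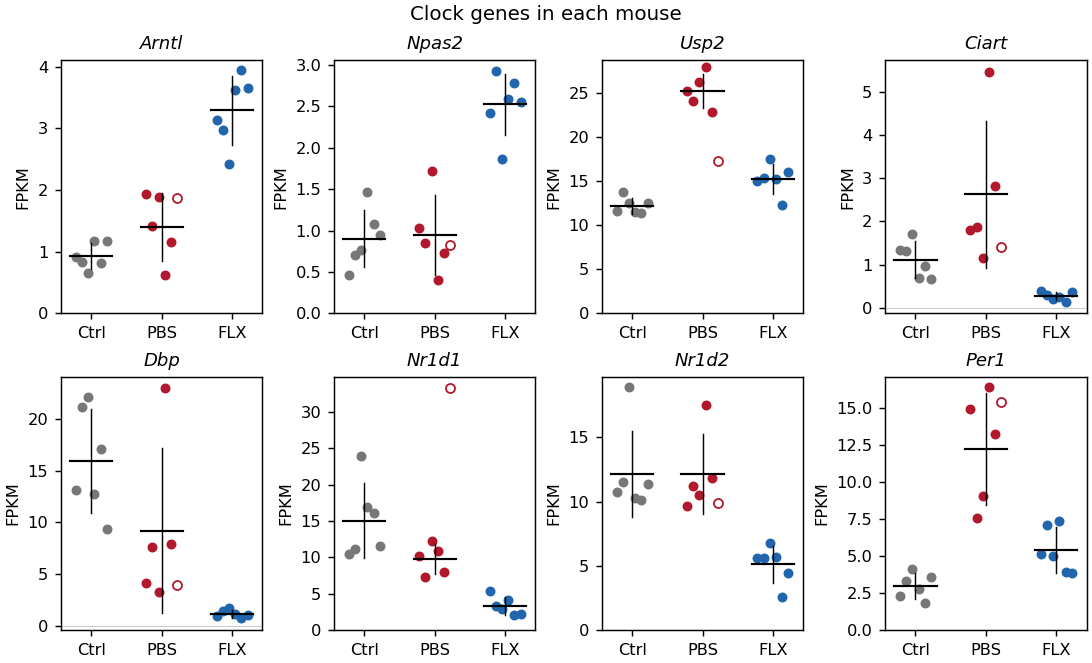
FPKM (y axis) of 8 clock genes in each mouse of the Ctrl, PBS and FLX groups (x axis), with black horizontal bars for group means and vertical lines for 1 SD, and PBS replicate 6 drawn as an open circle and kept out of the mean and SD. Arntl and Npas2 lie above all PBS mice in the FLX group, and Ciart, Dbp, Nr1d1, Nr1d2, Per1 and Usp2 lie below all 5 PBS mice in the mean.

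The 250 bases before a RefSeq start site of 2 of the clock repressors that fell are shown because they carry the E-box CACGTG, the element bound by the BMAL1 complex. Windows without these letters were left out, and the Per1 window lies inside the span of its gene (69095217 to 69109960). Sequences are from RefSeq, assembly GRCm38.p6, written 5′ to 3′ on the strand of the gene, with CACGTG in capitals. The palindrome reads alike on both strands.
Ciart, chr3:95882229-95882478, minus strand: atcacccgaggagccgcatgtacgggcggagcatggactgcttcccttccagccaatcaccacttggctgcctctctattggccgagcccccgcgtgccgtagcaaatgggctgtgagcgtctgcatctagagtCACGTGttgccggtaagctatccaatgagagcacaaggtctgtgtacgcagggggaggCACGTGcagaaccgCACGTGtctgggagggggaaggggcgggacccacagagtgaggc
Per1, chr11:69098699-69098948, plus strand: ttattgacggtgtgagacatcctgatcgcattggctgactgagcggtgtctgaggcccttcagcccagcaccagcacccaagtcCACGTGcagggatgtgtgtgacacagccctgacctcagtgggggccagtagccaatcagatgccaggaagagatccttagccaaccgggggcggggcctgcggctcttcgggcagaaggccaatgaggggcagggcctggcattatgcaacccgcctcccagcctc
The Ciart window held 3 matches, starting 116, 58 and 44 bases before the start site, and the Per1 window held 1, at 166 bases. Windows of 250 bases before to 50 after the start site were available for 13307 of 20227 tested symbols, and 1435 of these (10.8%) held CACGTG. The letters were present for 4 of 8 clock repressors with a window, Per1, Cry1, Ciart and Bhlhe41. Of these 4, Per1 and Ciart fell, Cry1 had a log2FC of 0.95 and Bhlhe41 one of -0.76 (adjusted p = 0.434). Nr1d1, Nr1d2 and Per3, which also fell, were not among the 4. A match describes the letters of the window only.

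Immediate early genes, which cells switch on within minutes of a stimulus, were mostly lower in the FLX group, but few passed the adjusted threshold with edgeR. All 10 tested AP-1 and EGR factors had a log2FC below 0 (median -1.15, and -1.12 over 6 PBS mice). None was called at an adjusted p under 0.05 by edgeR, whereas 8 were lower at an unadjusted p under 0.05 (5.38% of all genes). Downwards, 5 passed the study's threshold (0.914% of all genes), and DESeq2 called 1. Of 24 other immediate early genes, 0 rose and 3 fell, against 0.42% of all genes that fell (median of the list -0.89). DESeq2 called 1 of the 24 higher and 10 lower, against 251 and 247 among all genes. On the FPKM scale, with limma on log2(FPKM + 0.1), the medians of these lists were -0.43 and -0.56, and that of all genes was 0.0756. The PBS mice differed among themselves more than the FLX mice did. Egr1 was at 54.7, 3.37, 3.63, 36.1 and 7.55 FPKM in PBS replicates 1 to 5 and between 4.37 and 9.66 FPKM in the FLX mice (median 6.59), so that PBS replicates 2 and 3 lay below every FLX mouse while PBS replicates 1 and 4 lay far above. Its log2FC of -1.82 was not called (adjusted p = 0.172).

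Of the 3 members that fell, Plk3, a polo-like kinase gene of the stress response, separated the groups fully. It was at 55.3, 15.1, 20, 61.1 and 18.5 FPKM in the PBS mice and between 4.06 and 13.7 FPKM in the FLX mice (median 8.35). The log2FC was -2.21 (standard error 0.48, adjusted p = 0.0395), and PBS replicate 6, at 5.14 FPKM, took the adjusted p to 0.0979. Maff, a small MAF transcription factor, was at 9.81, 1.17, 2.27, 11.7 and 2.68 FPKM in the PBS mice against 0.883 to 1.71 FPKM in the FLX mice (log2FC -2.29, adjusted p = 0.0338). Gadd45b, a gene of growth arrest and DNA damage, fell by 0.90 on the log2 scale (adjusted p = 0.048), from 2.61 to 5.85 FPKM in the PBS mice to 1.70 to 3.31 FPKM in the FLX mice. These calls were lost in 8 (Plk3), 7 (Maff) and 13 (Gadd45b) of the 17 fits that left out 1 mouse. The adjusted p reached 0.121 for Maff and 0.134 for Plk3 without PBS replicate 4, and 0.140 for Gadd45b without PBS replicate 1. Over the 17 such fits, between 0 and 8 members of the list were called.

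Fos and Nr4a1, the textbook members of these lists, did not separate the groups. Fos was at 6.87, 0.774, 1.10, 4.32 and 2.17 FPKM in the PBS mice and between 0.854 and 5.13 FPKM in the FLX mice (adjusted p = 0.843). Nr4a1 was at 34.4, 2.78, 4.77, 18.4 and 21.8 FPKM in the PBS mice and between 8.46 and 11.7 FPKM in the FLX mice (adjusted p = 0.53). Hbegf, which encodes a ligand of the EGF receptor that injured tubules release, followed the same mice, with 30.4, 4.99, 3.43, 36.2 and 5.28 FPKM in PBS replicates 1 to 5. Between 2.61 and 5.47 FPKM were found in the FLX mice (log2FC -2.23, adjusted p = 0.048, and 0.110 over 6 PBS mice), and the call was lost in 13 of 17 fits without 1 mouse, with an adjusted p of up to 0.185, without PBS replicate 4. In contrast, Spry1, a feedback inhibitor of receptor tyrosine kinase signalling, rose from 4.37, 3.49, 5.05, 3.28 and 4.63 FPKM to between 7.03 and 8.44 FPKM. Its log2FC was 0.82 (standard error 0.13, adjusted p = 0.0054), but PBS replicate 6 had 10.5 FPKM and the call was lost with it (0.51, adjusted p = 0.307). Of the other 12 members of the MAP kinase feedback list, none was called by edgeR, whereas DESeq2 called 1 member of the list higher and 2 lower.

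Genes induced by glucocorticoids were mostly lower as well. Of 17 tested, 0 rose and 3 fell (0.42% of all genes fell), Per1 and the metallothioneins Mt1 and Mt2. Of the 17, 16 had a log2FC below 0, the median was -0.74, and DESeq2 called 8 lower, against 247 among all genes. Over 6 PBS mice, 3 fell and the median was -1.01. Mt1, which binds zinc and copper, was at 102, 74.0, 90.6, 121 and 163 FPKM in the PBS mice and between 53.1 and 76.4 FPKM in the FLX mice (median 61.7, log2FC -0.88, standard error 0.17, adjusted p = 0.0228). Mt2 was at 74.2, 33.6, 62.8, 118 and 137 FPKM in the PBS mice and between 26.3 and 53.4 FPKM in the FLX mice (log2FC -1.34, adjusted p = 0.038). The 2 genes resemble each other in sequence, and reads could have been shared between them. PBS replicate 6 had 386 FPKM of Mt1 and 620.3 FPKM of Mt2, several times the other PBS mice. The Mt1 call was lost without PBS replicate 4 (adjusted p = 0.081), FLX replicate 1 (0.059), FLX replicate 2 (0.0544) or FLX replicate 6 (0.0599). The Mt2 call was lost in 9 of 17 such fits, with an adjusted p of up to 0.130, without PBS replicate 4.

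Fkbp5, a co-chaperone of the glucocorticoid receptor and a common marker of its activity, was at 7.73, 12.3, 16.0, 10.5 and 8.14 FPKM in the PBS mice and between 4.59 and 9.30 FPKM in the FLX mice (median 5.92). Its log2FC of -0.78 was not called (adjusted p = 0.0935), and the exact two-sided permutation test gave p = 0.0238. Tsc22d3, which encodes the glucocorticoid-induced leucine zipper, overlapped fully (9.24 to 19.2 FPKM in the PBS mice, 11.1 to 17.7 FPKM in the FLX mice, log2FC -0.06, adjusted p = 0.947). Sgk1 had a log2FC of -0.58 (adjusted p = 0.314). The receptor gene Nr3c1 had one of 0.11 and was not called.

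**Figure D4:**
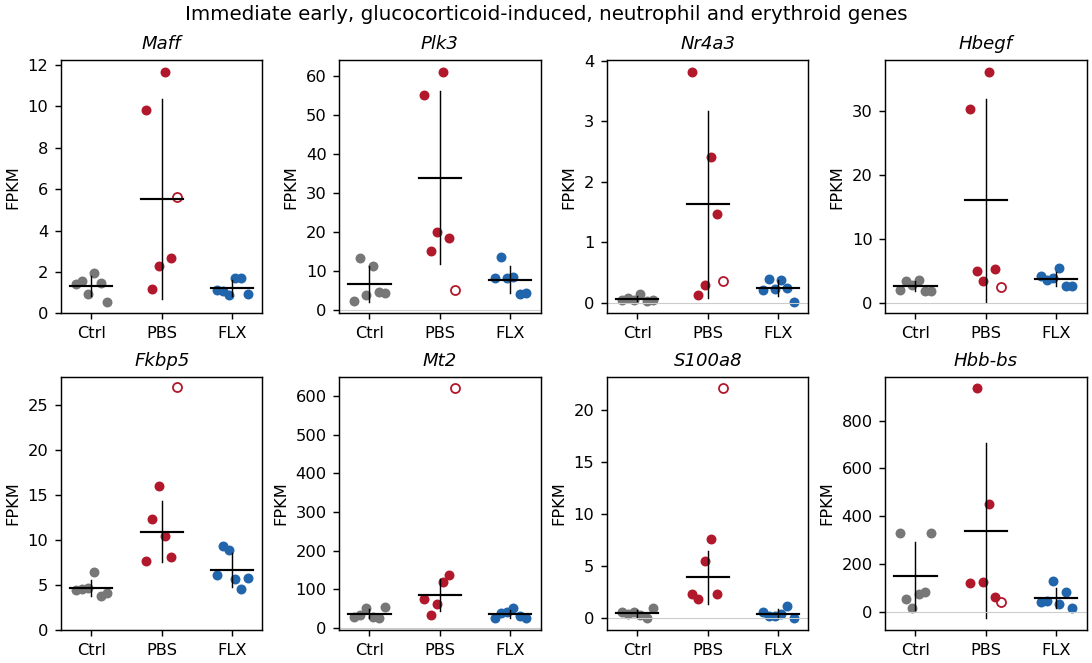
FPKM (y axis) of 4 immediate early or growth factor genes (top), and of 2 glucocorticoid-induced genes, a neutrophil gene and a hemoglobin gene (bottom), in each mouse of the 3 groups (x axis), drawn as in the plot of clock genes. In the top row the PBS means rest on the highest PBS mice, whereas S100a8 and Mt2 are highest in PBS replicate 6 (open circle), which is outside the mean.

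Among tubule genes with a known sex bias, the called genes of the male-biased list rose and those of the female-biased list fell. Male mouse kidneys normally carry more Slco1a1, Cyp4a12a, Cyp4b1 and Acsm3 and less Slc7a12, Prlr and Cyp4a14 than female kidneys, through androgen action and growth hormone. Of 20 male-biased genes tested, 4 rose (0.306% of all genes rose) and 0 fell, 17 had a log2FC above 0, and the median was 0.36. Of 10 female-biased genes, 0 rose and 3 fell (0.42% of all genes fell), with a median of -0.43. Of these 10, 7 had a log2FC below 0 and 3 had one above 0, up to 0.57. Over 6 PBS mice the counts were 5 higher for the male-biased list and 0 lower for the female-biased list.

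Slco1a1 (chromosome 6, 141907282 to 141946962), which carries organic anions across the brush border, was at 6.35, 5.98, 2.82, 4.27 and 3.58 FPKM in the PBS mice. It lay between 11.2 and 31.3 FPKM in the FLX mice (median 16.6), with every FLX mouse above every PBS mouse, and between 10.9 and 50.8 FPKM in the Ctrl mice. The log2FC was 2.03 (standard error 0.36, adjusted p = 0.014), and 2.26 over 6 PBS mice (adjusted p = 0.0329). Acsm3, a medium-chain acyl-CoA synthetase gene of mitochondria, was at 21.6, 51.5, 33.5, 40.4 and 32.5 FPKM in the PBS mice and between 79.8 and 180.4 FPKM in the FLX mice (median 89.0). Its log2FC was 1.58 (standard error 0.24, adjusted p = 0.00395), and PBS replicate 6 was lower still, at 3.28 FPKM. Cyp4a12a, which makes the vasoconstrictor 20-HETE from arachidonic acid, was at 2.77, 3.26, 2.80, 6.14 and 2.44 FPKM in the PBS mice and between 6.54 and 19.8 FPKM in the FLX mice (median 14.3). The log2FC was 1.86 (standard error 0.35, adjusted p = 0.0191, and 0.0615 without PBS replicate 1). Its near-copy Cyp4a12b, with which reads can be shared, had a log2FC of 0.64 (adjusted p = 0.222).

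Cyp4b1, a fatty acid and xenobiotic hydroxylase, was the most abundant gene among the male-biased calls. It was at 372, 495, 365, 348 and 455 FPKM in the PBS mice and between 589 and 1044 FPKM in the FLX mice (median 900.3), without overlap. The log2FC was 0.99 (standard error 0.18, adjusted p = 0.0157), and the adjusted p was 0.053 without PBS replicate 4. The urate transporter gene Slc22a12 was at 438 to 552 FPKM in the PBS mice and 639.5 to 823 FPKM in the FLX mice, a log2FC of 0.44 (adjusted p = 0.0578, and 0.0422 over 6 PBS mice).

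On the female-biased side, Slc7a12, an amino acid transporter gene, was at 20.3, 23.6, 28.7, 25.4 and 12.2 FPKM in the PBS mice and between 5.86 and 14.9 FPKM in the FLX mice (median 7.46). The log2FC was -1.37 (standard error 0.25, adjusted p = 0.0179). In the Ctrl mice it lay between 1.46 and 2.81 FPKM, below all FLX mice. Prlr, the prolactin receptor gene, was at 4.08, 3.96, 5.06, 5.69 and 4.32 FPKM in the PBS mice. The FLX mice lay between 1.38 and 3.17 FPKM (median 1.59), without overlap, and Prlr fell by 1.28 on the log2 scale (standard error 0.26, adjusted p = 0.0282). Slc22a29, an organic anion transporter gene in a cluster of close copies, fell by 1.25 (adjusted p = 0.0338), from 1.89 to 4.71 FPKM in the PBS mice to 0.931 to 2.45 FPKM in the FLX mice. These 3 calls depended on the left-out mouse, which had 0.708 FPKM of Slc7a12, 1.55 FPKM of Prlr and 1.59 FPKM of Slc22a29. Over 6 PBS mice the adjusted p was 0.344 for Slc7a12, 0.102 for Prlr and 0.0886 for Slc22a29. Without PBS replicate 4 it was 0.0557, 0.0967 and 0.110. The Prlr and Slc22a29 calls were each lost in 7 of 17 fits without 1 mouse, and the Slc7a12 call in 1.

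**Figure D5:**
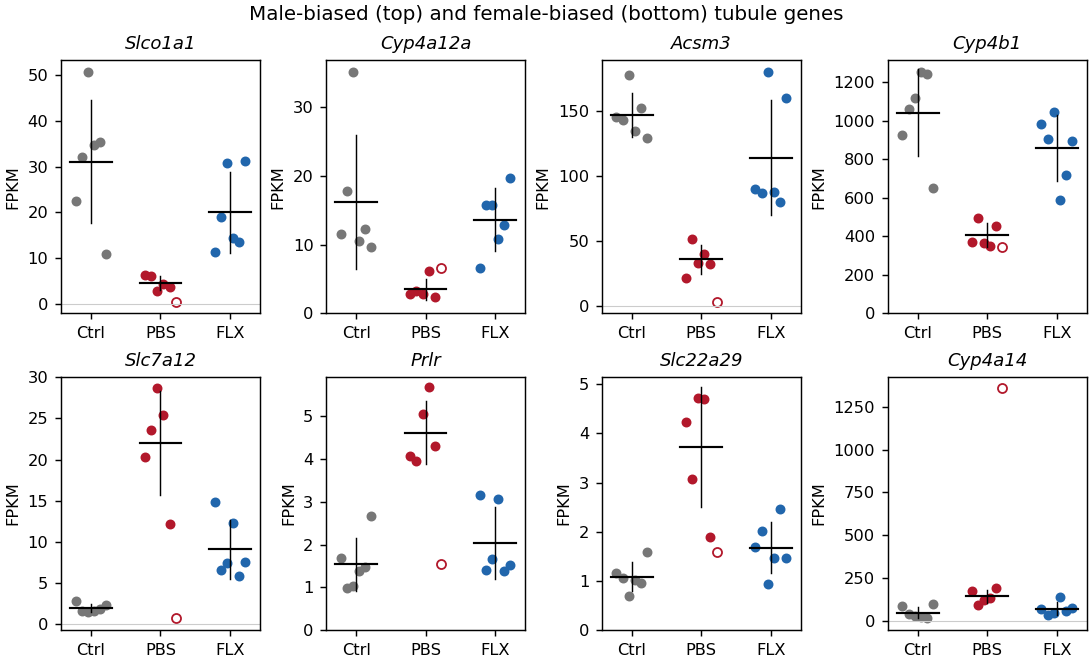
FPKM (y axis) of 4 male-biased (top) and 4 female-biased (bottom) tubule genes in each mouse of the 3 groups (x axis), drawn as in the plot of clock genes. All FLX mice exceed all 5 PBS mice for the 4 male-biased genes, and for Prlr all FLX mice lie below the 5 PBS mice while PBS replicate 6 (open circle), at 1.55 FPKM, lies among the FLX mice.

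Ccn2 and Amotl2, targets of the coactivators YAP and TAZ that Hippo kinases hold in check, rose in the FLX group. Of 30 genes of the Hippo pathway, 2 rose (0.306% of all genes rose) and 0 fell, and 25 had a log2FC above 0. The median was 0.14 (0.15 with upper-quartile scaling and 0.22 on the FPKM scale, where the median of all genes also shifted to 0.0756). Ccn2 (ENSMUSG00000019997, chromosome 10, 24595442 to 24598683), a matricellular growth factor gene and YAP target, had the smallest p among all genes that rose. It was at 13.3, 16.4, 17.1, 7.89 and 18.9 FPKM in the PBS mice and between 29.8 and 44.1 FPKM in the FLX mice (median 36), without overlap. The log2FC was 1.25 (standard error 0.16, adjusted p = 0.00131), and at most 0.00541 in any fit that left out 1 of the 17 mice. PBS replicate 6, however, had 41.4 FPKM, inside the range of the FLX mice, and with it the log2FC was 0.88 (adjusted p = 0.110).

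Amotl2 (chromosome 9, 102716672 to 102733418), a YAP target whose product retains YAP at cell junctions, did not depend on that mouse. It was at 3.00, 4.26, 4.36, 2.02 and 6.06 FPKM in the PBS mice and between 7.91 and 11.6 FPKM in the FLX mice (median 9.31). The log2FC was 1.16 (standard error 0.19, adjusted p = 0.00731), and 1.08 over 6 PBS mice (adjusted p = 0.0122). Ccn1, a close relative of Ccn2 that is also an immediate early gene, was at 19.0, 3.93, 9.89, 11.8 and 12.1 FPKM in the PBS mice and between 18.7 and 33.2 FPKM in the FLX mice (log2FC 1.08, adjusted p = 0.0719). Ankrd1, a further YAP target, had one of 0.36 (adjusted p = 0.74). The kinase and coactivator genes of the pathway moved little, with log2FCs of 0.15 for Yap1, -0.10 for Wwtr1 and 0.05 for Lats1, and 0.50 for Lats2 (adjusted p = 0.0697).

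The 250 bases before a RefSeq start site of Amotl2 are shown because they hold the TEAD core GGAATG, through which YAP acts, on the opposite strand as CATTCC, in capitals. This window lies inside the span of the gene given above, and windows without the letters were left out. The sequence is from RefSeq, assembly GRCm38.p6, 5′ to 3′ on the strand of the gene.
Amotl2, chr9:102717554-102717803, plus strand: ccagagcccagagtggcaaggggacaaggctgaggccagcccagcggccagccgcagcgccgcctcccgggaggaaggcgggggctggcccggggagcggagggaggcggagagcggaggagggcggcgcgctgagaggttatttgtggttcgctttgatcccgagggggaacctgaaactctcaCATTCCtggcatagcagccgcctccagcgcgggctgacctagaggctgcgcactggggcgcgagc
The match starts 65 bases before the start site. GGAATG, searched on both strands, was found in 2011 of 13307 windows (15.1%) and in 12 of the 24 Hippo pathway genes with a window, Amotl2, Ccn1 and Ankrd1 among them. Ccn2 was not among these 12.

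Endothelial genes were measured beside this result. Sox18, a transcription factor gene of endothelial cells, rose from 2.37, 3.17, 3.73, 1.51 and 3.10 FPKM in the PBS mice to between 4.66 and 6.68 FPKM in the FLX mice (median 5.80). Its log2FC was 0.97 (standard error 0.17, adjusted p = 0.0155, and 0.0107 over 6 PBS mice). Of 12 endothelial markers none was called by edgeR, 7 were higher at an unadjusted p under 0.05 (5.76% of all genes), DESeq2 called 2, and the median log2FC was 0.32 (0.07 over 6 PBS mice). Summed over the list, they reached 74.6 to 118 FPKM in the 5 PBS mice, 203 FPKM in PBS replicate 6 and 122 to 150 FPKM in the FLX mice. Their part in the higher YAP targets was not tested. Tcf21, a transcription factor gene of podocytes and stromal cells, was at 1.59, 6.06, 4.30, 1.36 and 3.04 FPKM in the PBS mice and between 7.92 and 10.1 FPKM in the FLX mice (log2FC 1.32, adjusted p = 0.0367, and 0.0924 without PBS replicate 4). The Tcf21 call was lost in 10 of 17 fits without 1 mouse. The other 9 podocyte genes were not called by edgeR, DESeq2 called 1 of the list higher and 1 lower, and the median of that list was -0.08.

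Genes of drug and solute handling moved singly rather than as groups. Of 31 cytochrome P450 and reductase genes tested, 2 rose (Cyp4a12a and Cyp4b1, above) and 2 fell (median -0.10). Por, the electron donor of all microsomal P450 enzymes, was at 63.7, 69.9, 57.3, 63.7 and 71.9 FPKM in the PBS mice and between 54.0 and 56.8 FPKM in the FLX mice, a small change without overlap (log2FC -0.32, adjusted p = 0.042, and 0.256 over 6 PBS mice). Cyp2d22, of the subfamily that metabolises fluoxetine in humans, fell by 0.49 (adjusted p = 0.0438, and 0.0842 over 6 PBS mice), from 7.08 to 8.51 FPKM in the PBS mice to 4.64 to 7.03 FPKM in the FLX mice. Without PBS replicate 4 the adjusted p was 0.116 for Por and 0.104 for Cyp2d22, and each call was lost in 14 of 17 fits without 1 mouse. Gsta2, a glutathione transferase gene with close copies, fell by 0.72 (adjusted p = 0.0402) and was the only member of 38 conjugating enzymes called by edgeR (DESeq2 called 3 lower, and limma on log2(FPKM + 0.1) called 1 higher but 0 lower), at 188 to 309 FPKM in the PBS mice and 111 to 207 FPKM in the FLX mice. Its adjusted p was 0.134 without PBS replicate 4, and the call was lost in 12 of 17 fits without 1 mouse.

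Of 41 organic ion and drug transporters, 1 rose (Slco1a1) and 1 fell (Slc22a29), with a median of 0.00. Of 30 amino acid transporters, 0 rose and 2 fell. Besides Slc7a12, this was Slc6a19, the main neutral amino acid transporter of the proximal tubule, at 45.9, 32.9, 49.6, 51.3 and 52.0 FPKM in the PBS mice and between 25.4 and 36.1 FPKM in the FLX mice (log2FC -0.69, adjusted p = 0.0315, and 0.104 without PBS replicate 4). The Slc6a19 call was lost in 8 of 17 fits without 1 mouse. Epo, which encodes erythropoietin, was at 0.608, 0.783, 3.03, 2.3 and 0.331 FPKM in the PBS mice and between 0.00283 and 0.339 FPKM in the FLX mice. Its log2FC of -3.46 was not called (adjusted p = 0.0697).

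Hpgd, Pzp and Hrg were among the genes that rose with the smallest p. Hpgd, which inactivates prostaglandins, was at 4.44, 6.19, 4.75, 5.01 and 5.03 FPKM in the PBS mice and between 8.48 and 11 FPKM in the FLX mice (log2FC 0.80, standard error 0.11, adjusted p = 0.00197). Pzp, a protease inhibitor of the alpha-2-macroglobulin family, was at 1.85, 0.952, 0.914, 1.29 and 1.18 FPKM in the PBS mice against 2.89 to 8.10 FPKM in the FLX mice (log2FC 1.96, standard error 0.29, adjusted p = 0.00395). Hrg, histidine-rich glycoprotein, was at 0.216 to 0.409 FPKM in the PBS mice and 0.768 to 1.84 FPKM in the FLX mice (log2FC 1.88, adjusted p = 0.0175). All 3 separated the groups fully, as did 108 of the 147 called genes. Among 31 plasma protein genes, 2 rose (Pzp and Hrg) and 1 fell, Apoc3, an inhibitor of lipoprotein lipase, at 9.18 to 25.9 FPKM in the PBS mice and 5.96 to 12.3 FPKM in the FLX mice (log2FC -1.34, adjusted p = 0.0315, and 0.096 without PBS replicate 4). The Apoc3 call was lost in 9 of 17 fits without 1 mouse.

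Others of the 15 genes with the smallest p in each direction belonged to no list. Arrdc3, an arrestin-domain adaptor of receptor sorting, rose by 0.79 on the log2 scale (adjusted p = 0.00336), Gramd4 by 0.56 (adjusted p = 0.00778) and Snn, stannin, by 0.46 (adjusted p = 0.0116). Ypel2 rose by 0.80 (adjusted p = 0.00609) and Pde6a, a cGMP phosphodiesterase subunit gene, by 0.90 (adjusted p = 0.0188), but over 6 PBS mice their adjusted p was 0.152 and 0.117, and that of Pde6a was 0.0582 without PBS replicate 4. On the lower side, Tnfrsf21, the death receptor DR6, was at 49.1, 61.5, 48.2, 57.0 and 50.1 FPKM in the PBS mice and between 22.4 and 35.2 FPKM in the FLX mice (log2FC -0.92, standard error 0.11, adjusted p = 0.000808). Retreg1, a receptor for autophagy of the endoplasmic reticulum, fell by 0.76 (adjusted p = 0.00131) and Herpud1, which serves degradation at the same organelle, by 0.63 (adjusted p = 0.0067). Cbr1, a carbonyl reductase, fell by 0.97 (adjusted p = 0.00579), Polr3d, an RNA polymerase III subunit, by 0.78 (adjusted p = 0.00609), Piga, of GPI anchor synthesis, by 0.87 (adjusted p = 0.00307) and Klf13, a zinc finger factor, by 0.64 (adjusted p = 0.00785). Lyplal1, a lysophospholipase-like gene, was at 49.6 to 64.8 FPKM in the PBS mice and 23.5 to 39.1 FPKM in the FLX mice (log2FC -1.02, adjusted p = 0.00436), yet 22 FPKM in PBS replicate 6 took its adjusted p to 0.0757.

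Mitochondrial and ribosomal transcripts lay slightly lower in the FLX group, with 1 call. Of 46 nuclear genes of respiratory chain subunits, all had a log2FC below 0 (median -0.24), 16 were lower at an unadjusted p under 0.05 (5.38% of all genes) and 1 fell, Uqcrb of complex III (195 to 227 FPKM in the PBS mice, 166 to 205 FPKM in the FLX mice, log2FC -0.35, adjusted p = 0.0449, and 0.178 over 6 PBS mice). The Uqcrb call was lost in 15 of the 17 fits without 1 mouse, with an adjusted p of up to 0.140, without PBS replicate 4, and no member was called with upper-quartile or RLE scaling, while DESeq2 called 2 lower. On the FPKM scale, 4 of the 46 lay above 0 and the median was -0.15, while the median of all genes shifted to 0.0756. None of the 13 protein-coding genes of the mitochondrial genome and none of 65 ribosomal protein genes was called, with medians of -0.20 and -0.11, and 5 and 1 of them had an unadjusted p under 0.05, while DESeq2 called 1 mitochondrial and 0 ribosomal genes. On the FPKM scale the ribosomal median was -0.02, beside the same 0.0756 for all genes. The transfer RNA gene mt-Tl1 fell by 1.16 (adjusted p = 0.00805), from 388 to 847 FPKM in the PBS mice to 212 to 407 FPKM in the FLX mice, but it is too short to be told apart from fragments of the genes beside it. Of 38 genes of fatty acid oxidation, 30 of lysosomes, 21 Nrf2 targets and 32 chaperones none was called by edgeR, with 4, 4, 3 and 3 at an unadjusted p under 0.05, and DESeq2 called 1 Nrf2 target and 1 chaperone. Among 29 genes of cholesterol synthesis and uptake, Cyp51 fell by 0.62 (adjusted p = 0.0157, 0.749 over 6 PBS mice and 0.052 without PBS replicate 4), and among 23 of iron and heme handling, Tfrc, the transferrin receptor gene, fell by 1.29 (adjusted p = 0.0252, 0.0508 over 6 PBS mice and 0.0922 without PBS replicate 4). The Tfrc call was lost in 7 of the 17 fits without 1 mouse.

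Among the lists of inflammatory genes, that of neutrophils had the lowest median. Of 13 neutrophil genes tested, 1 fell (0.42% of all genes fell) and 5 passed the study's threshold downwards (0.914% of all genes). The median log2FC was -0.66 (-0.06 with limma on log2(FPKM + 1), where the median of all genes was 0.0384). S100a8, a calcium-binding alarmin gene, was at 2.34, 1.82, 5.52, 7.65 and 2.37 FPKM in the PBS mice and between 0.0833 and 1.2 FPKM in the FLX mice (median 0.331), without overlap. Its log2FC was -3.14 (standard error 0.69, adjusted p = 0.0402), and -3.93 over 6 PBS mice (adjusted p = 0.0275), but the adjusted p reached 0.141 without PBS replicate 4 and exceeded 0.05 in 11 of 17 such fits. Its partner S100a9 was at 5.03, 3.17, 7.91, 13 and 4.63 FPKM in the PBS mice and between 0 and 3.12 FPKM in the FLX mice (log2FC -2.45, adjusted p = 0.0959). The list summed to 8.33 to 28.3 FPKM in the 5 PBS mice, 72.7 FPKM in PBS replicate 6 and 1.77 to 10.8 FPKM in the FLX mice. The granule genes Elane, Mpo, Ctsg and Camp and the surface gene Ly6g were too low to be tested.

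Outside neutrophil genes, Sphk1, which makes sphingosine 1-phosphate, fell by 1.18 on the log2 scale (adjusted p = 0.0245), from 3.02, 2.11, 2.57, 2.81 and 2.20 FPKM in the PBS mice to between 0.677 and 2.08 FPKM in the FLX mice, and was the only edgeR call among 31 acute cytokine and NF-kB feedback genes, of which DESeq2 called 3 lower. Its adjusted p was 0.081 without PBS replicate 4 and exceeded 0.05 in 6 of 17 such fits. Of 38 chemokine and receptor genes none was called by edgeR, 9 had an unadjusted p under 0.05 (6 higher and 3 lower), and DESeq2 called 1. Cxcl1, a neutrophil chemokine gene, was at 14.6, 1.62, 0.425, 13.1 and 1.86 FPKM in the PBS mice and between 0.382 and 2.61 FPKM in the FLX mice (log2FC -2.22, adjusted p = 0.206), the 2 highest PBS mice being those with the highest Egr1. Ccr1 had a log2FC of -1.23 (adjusted p = 0.284). Il1b had one of 0.92 (adjusted p = 0.293). Of 37 interferon-induced and 20 MHC genes none was called by edgeR, 1 in each list had an unadjusted p under 0.05, and DESeq2 called 1 in each, with medians of -0.04 and -0.01.

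Clu, which encodes clusterin of injured tubules and of complement control, was at 117, 153, 116, 148 and 94.4 FPKM in the PBS mice and between 73.3 and 94.3 FPKM in the FLX mice (log2FC -0.69, adjusted p = 0.0222, and 0.0825 without PBS replicate 4). The Clu call was lost in 5 of 17 fits without 1 mouse. Of 20 tubule injury genes, 0 rose and 2 fell, Clu and Hbegf. Havcr1, which encodes KIM-1, had a log2FC of -0.39 and Lcn2 one of -0.51, and neither was called. The left-out mouse had 9.75 FPKM of Havcr1 and 49.2 FPKM of Lcn2, against at most 1.66 and 4.42 FPKM in the other PBS mice, and over 6 PBS mice the median of the injury list moved from -0.17 to -0.89.

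Markers of other cells and tissues varied between mice of 1 group. Of 8 erythroid genes tested none was called by edgeR, and 6 were lower at an unadjusted p under 0.05 (5.38% of all genes). DESeq2 called 5 lower, against 247 among all genes, and the median log2FC was -2.68. Hbb-bs, a beta-globin gene with a close copy, was at 121, 937, 123, 449 and 62.6 FPKM in the PBS mice and between 13.1 and 127 FPKM in the FLX mice (adjusted p = 0.138). The erythroid sum was 149.8 to 2137 FPKM in the PBS mice and 39.5 to 302 FPKM in the FLX mice, and the part of blood left in the kidney in the lower neutrophil genes was not tested. Fat genes summed to 135 to 1828 FPKM in the PBS mice and 125 to 1746 FPKM in the FLX mice, and urothelial genes to 2.44 to 86.9 FPKM and 2.11 to 226 FPKM. The fat ranges nearly coincided, whereas the FLX range of urothelial genes reached higher. Of the 7 urothelial genes, 6 had a log2FC above 0 (median 1.17), with none called by edgeR or DESeq2 and none at an unadjusted p under 0.05. Their direction depended on the FLX mice used. With FLX replicates 3 to 6 alone all 7 lay above 0 (median 1.70), and with FLX replicates 1 and 2 alone all 7 lay below 0 (median -2.02). All 12 T cell and NK cell genes had a log2FC above 0 (median 0.40), with none called by edgeR or DESeq2 and none at an unadjusted p under 0.05. Igha, an immunoglobulin heavy chain gene, was at 4.87, 2.36, 1.79, 2.98 and 3.32 FPKM in the PBS mice and between 5.47 and 16.4 FPKM in the FLX mice (log2FC 1.44, adjusted p = 0.0649).

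No difference was detected in the gene of the drug's target or in other serotonin genes. Of 17 serotonin and monoamine genes none was called by edgeR or DESeq2, and with edgeR over 5 PBS mice none had an unadjusted p under 0.05 (median log2FC 0.02). At the study's threshold, 1 was higher with DESeq2, and 1 was higher and 1 lower with edgeR over 6 PBS mice. Slc6a4, the serotonin transporter gene, was at 0.903, 0.383, 1.28, 1.27 and 1.11 FPKM in the PBS mice and between 0.725 and 1.26 FPKM in the FLX mice (log2FC -0.03, standard error 0.25, exact two-sided permutation p = 0.747). Maoa, which degrades serotonin, was at 1.8 to 2.48 FPKM in the PBS mice and 2.00 to 2.92 FPKM in the FLX mice (log2FC 0.01, standard error 0.10). The 6 serotonin receptor genes tested, which were Htr7, Htr4, Htr3a, Htr2b, Htr2a and Htr1b, were below 1 FPKM in all FLX mice and the 5 PBS mice (Htr3a was at 2.33 FPKM in PBS replicate 6), and their log2FCs ran from -0.40 (Htr3a) to 1.94 (Htr4) with standard errors of up to 1.17, so that small differences were not detectable. Tph1, the enzyme of serotonin synthesis outside the brain, was at or below 0.0607 FPKM in every FLX mouse and was too low to be tested.

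Of 18 stress hormone receptor genes none was called by edgeR, 4 had an unadjusted p under 0.05 (1 higher and 3 lower), and DESeq2 called 2. Mchr1, the receptor gene for melanin-concentrating hormone, was at 2.74, 0.678, 1.30, 3.88 and 1.5 FPKM in the PBS mice and between 0.327 and 1.17 FPKM in the FLX mice (log2FC -1.57, adjusted p = 0.125). Among 12 genes of prolactin and growth hormone signalling, 2 fell, Prlr and Igfbp1. Igfbp1, an insulin-repressed binding protein of IGF1, was at 8.25, 2.1, 7.83, 9.43 and 3.95 FPKM in the PBS mice and between 0.785 and 3.51 FPKM in the FLX mice. It fell by 2.09 on the log2 scale (standard error 0.40, adjusted p = 0.0191). The Ctrl mice lay above, between 8.08 and 18.4 FPKM. The Igfbp1 call was lost without PBS replicate 4 (adjusted p = 0.0708), PBS replicate 1 (0.0546), FLX replicate 6 (0.0562) or FLX replicate 1 (0.0513).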

How the data were processed

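Poly(A) RNA of right kidneys was sequenced in read pairs. The authors deposited an FPKM value and a read count per gene and mouse for 32675 genes. Their methods name fastp, HISAT-3N and StringTie with GRCm38. The processing notes in the labels name cutadapt 1.9, HISAT2 2.0.4, UMI-tools and StringTie 1.3.4d instead. No source used here names the counting tool, and the deposited counts, though whole, were handled as estimated counts, so their precision is below that of the same number of reads. The authors' FPKM values were used for levels.

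Counts were tested with edgeR 4.0.16 (R 4.3.3): low-count filter, TMM, quasi-likelihood F test (two-sided) of FLX against PBS in 1 model of 17 libraries and 3 groups, PBS replicate 6 left out, with Benjamini-Hochberg adjustment. The spread is thus partly that of the Ctrl mice. The fit was tested on simulated counts. DESeq2 1.42.0, limma 3.58.1 on log2(FPKM + 0.1) and log2(FPKM + 1), other scalings and filters, thinned counts, subsets of FLX mice and leaving out each mouse were alternatives. Exact permutation tests of single genes were on log2(FPKM + 0.1).

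Genes named are the 15 with the smallest p in each direction, called members of 55 lists, up to 3 abundant members of a list, and set genes of serotonin and stress. Others named were chosen after their values were seen: Bhlhe41, Egr1, Cyp4a12b, Ankrd1, Yap1, Lats1, Lats2, Epo, Sgk1, Nr3c1, Cxcl1, Ccr1, Havcr1, Mchr1, Nphs1, Cyp4a14, Ly6i and those outside the lists. Some called or listed genes are not reported here. The members and lists were chosen with earlier results of these data known. Groups came from the sample labels. Libraries labelled as replicates were from separate mice by the study's methods. The PBS mice also serve in the comparison with Ctrl, which was not analysed here.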

Additional observations from a re-analysis of the deposited data

Results flagged for a closer look

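Across 73 genes and 148 groups of 5 or 6 mice, 7 values, each of 1 gene in 1 mouse, lay far from the rest of their group by Dixon's test. Chance alone gives about 1 in 20 groups, and some mice were flagged for more than 1 gene. Among called genes, Arrdc3 was highest in PBS replicate 3 (11.9 FPKM, against 7.74 to 8.56 FPKM in the other 4), still below all FLX mice. Tef was lowest in PBS replicate 1 (18.6 FPKM) and Slc6a19 in PBS replicate 2 (32.9 FPKM), both inside the range of the FLX mice. Piga was highest in FLX replicate 4 (3.89 FPKM). FLX replicate 4 also had the highest Lcn2 (6.37 FPKM, group median 1.21) and Htr4 (0.274 FPKM, group median 0.0646), and FLX replicate 6 had the highest Tph1 (0.0607 FPKM). The cause of none of these was tested.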

How the results depend on the processing

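Counts of genes higher and lower at the adjusted threshold, 62 and 85 as reported, were 251 and 247 with DESeq2, 33 and 55 with no filter on low counts, 17 and 21 with FLX replicates 3 to 6 only, and 0 and 0 with FLX replicates 1 and 2 only, where 1323 of 21863 genes had an unadjusted p under 0.05. Genes higher became 192 and 182 with limma on log2(FPKM + 0.1) and log2(FPKM + 1), with 75.3% and 75.2% of calls higher against 42.2% as reported, and 35 without the Ctrl group. Of the calls, 48.3% were higher with upper-quartile scaling, 50.4% with DESeq2 and 31.3% with the replicate block. Leaving out 1 mouse gave 22 to 104 higher (fewest without PBS replicate 4, most without Ctrl replicate 3; 28 without PBS replicate 1, 30, 33, 35, 37 and 38 without FLX replicates 6, 1, 2, 5 and 3) and 25 to 146 lower (fewest without PBS replicate 4, most without Ctrl replicate 3; 36, 37, 43, 48 and 49 without FLX replicates 6, 1, 3, 5 and 2, and 40 without PBS replicate 1). At the study's threshold, genes up-regulated (199) became 775 with no filter and 20 with limma on log2(FPKM + 1), and 182 to 354 without 1 mouse (most without PBS replicate 5). Genes down-regulated (185) became 876 with no filter, 91 and 38 with limma at both pseudocounts, 387 with FLX replicates 1 and 2 only, and 165 to 236 without 1 mouse. The causes were not tested. Whether equal replicate numbers mark paired mice is not known, as the labels give numbers only. Deviations of same-numbered FLX and PBS mice correlated between -0.0266 and 0.2272, above 0.1 in 1 of 5 pairs, and a shared cage or day was not tested. With the replicate block 21 genes were higher and 46 lower, and 33 of 60 called genes named kept their call. Of these 60, 41 kept it with PBS replicate 6, 60 with DESeq2, 57 with upper-quartile scaling, 59 with thinned counts, 28 with FLX replicates 3 to 6 only, 0 with FLX replicates 1 and 2 only and 29 in all 17 fits without 1 mouse. None reversed in any alternative, but every alternative reused mice that had served to select the genes. The totals of FLX replicates 3 to 6 were lower, and with all libraries thinned to the lowest total the counts were again 62 and 85. What depth limits among genes with few counts was not tested.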

Other observations

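Of the 147 called genes, 104 were in no list. The following were chosen after their values were seen. Pck1, the rate-limiting enzyme of gluconeogenesis, was at 502 to 826 FPKM in the 5 PBS mice and 254 to 500.2 FPKM in the FLX mice (log2FC -0.83, edgeR adjusted p = 0.0209, and 0.0164 over 6 PBS mice). Glul, glutamine synthetase, had a log2FC of -0.71 (adjusted p = 0.0191). The transcription factor genes Cebpb (19.7 to 39.9 FPKM in the PBS mice, 14.8 to 18.6 FPKM in the FLX mice, log2FC -0.86, adjusted p = 0.0157), Cebpd (-1.14, adjusted p = 0.019) and Foxo3 (-0.79, adjusted p = 0.0401) and the mitophagy receptor gene Bnip3 (-0.50, adjusted p = 0.0244) also fell, and these 6 calls held over 6 PBS mice.

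Among genes of vessels outside the lists, Dll4, a Notch ligand of arterial and sprouting endothelium, was at 1.05 to 1.90 FPKM in the PBS mice and 1.78 to 3.59 FPKM in the FLX mice (log2FC 0.82, edgeR adjusted p = 0.0465, and 0.0312 over 6 PBS mice). Pdgfb, by which endothelium recruits pericytes, had a log2FC of 0.47 (adjusted p = 0.0191), and Pcdh12, an endothelial protocadherin, of 0.68 (adjusted p = 0.0252). Ly6i was listed at 0 FPKM in the 5 PBS mice, at 0.310 FPKM in PBS replicate 6 and at 0 to 0.540 FPKM in the FLX mice, and its call did not hold over 6 PBS mice (adjusted p = 0.573). Gm6300, a gene beside Slc7a12 on chromosome 3 (14363117 to 14377587), was at 1.57, 4.38, 1.64, 2.23 and 1.18 FPKM in the PBS mice and 6.67 to 33.9 FPKM in the FLX mice (log2FC 2.90, adjusted p = 0.0067).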
